A study of Mus musculus with 16 samples.

Results

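Mitochondrially encoded transcripts are the RNAs read from the small circular genome of the mitochondrion. Here they were the rows of both count tables whose gene symbol starts with mt-, which are 37 of the 49585 genes in each table. They comprise 13 mRNAs, 2 rRNAs and 22 tRNAs. The rule used the gene names alone and no measured value. A transcript was counted as detected in a library with more than 3 counts. Both rRNAs and 11 of the mRNAs passed that floor in all 16 libraries, mt-Nd4l in 14 and mt-Atp8 in 7.

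The libraries came from C2C12, a line of mouse myoblasts that form multinucleated myotubes in low serum, and were made from total RNA depleted of ribosomal RNA. The first experiment held WT cells and AMPK-KO cells. In the latter both genes for the catalytic subunit of the energy-sensing kinase AMPK, Prkaa1 and Prkaa2, were targeted by CRISPR. Both kinds of cell were sampled at day 0 (d0, myoblasts) and day 8 of differentiation (d8, the myotube stage), with 2 libraries per group. By morphology and myosin heavy chain, the study reports that its AMPK-/- cells lost all potential to become myotubes. For AMPK-KO cells d8 is therefore a time and not a cell state. The second held AMPK-/- myoblasts at d0 in which a FLAG-BirA tag, with the wild-type sequence (TET2-WT) or the serine 97 to glutamate substitution that mimics phosphorylation (TET2-S97E), was knocked in at Tet2. Tet2 encodes a dioxygenase that oxidizes 5-methylcytosine. Each TET2 genotype was represented by clone 1 and clone 2, with 2 libraries from each, and both genotypes therefore lacked AMPK. The labels state neither whether the replicates were separate cultures nor which knockout line each AMPK-KO library came from, so the p-values measure the spread between these libraries, which may be technical. Library totals ran from 17883417 to 24663079 counts in the first experiment and from 19801909 to 37790358 in the second.

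The mitochondrial genome is transcribed from both strands into long precursors. The tRNAs lie between most of the mRNAs and rRNAs, and cutting them out releases the other transcripts. The mRNAs encode core subunits of respiratory complexes I (mt-Nd1 to mt-Nd6 and mt-Nd4l), III (mt-Cytb) and IV (mt-Co1 to mt-Co3) and of ATP synthase (mt-Atp6 and mt-Atp8), whose other subunits are encoded in the nucleus. The rRNAs mt-Rnr1 and mt-Rnr2 form the small and large subunits of the mitochondrial ribosome. Skeletal muscle fibres rely on oxidative phosphorylation, and mitochondria are remodelled as myoblasts differentiate.

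Pieces of mitochondrial DNA have also been copied into the nuclear chromosomes, and some are annotated as pseudogenes. These copies decide which mt- transcripts can be told apart by their sequence, and therefore a pair is shown for each degree of likeness. All sequences are from GENCODE transcripts on GRCm38 and run 5′ to 3′. Capitals mark bases that differ, and each substitution gives the mt- base, its position from 1 at the start of the mt- gene, and the base of the copy. In mt-Co2 and its copy on chromosome 1, Gm28661, no base differed over the stretch shown, the first 61 bases of the gene.
mt-Co2, chrM:7013-7073, plus strand: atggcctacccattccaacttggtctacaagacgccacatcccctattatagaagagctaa
Gm28661, chr1:24615505-24615565, minus strand: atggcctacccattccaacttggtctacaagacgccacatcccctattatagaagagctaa
In mt-Nd3 and Gm28438 the single difference over the aligned length was T3C, in the first codon.
mt-Nd3, chrM:9459-9519, plus strand: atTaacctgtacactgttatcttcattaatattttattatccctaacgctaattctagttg
Gm28438, chr1:24613059-24613119, minus strand: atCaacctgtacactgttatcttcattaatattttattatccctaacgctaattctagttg
In contrast, mt-Cytb and its copy Gm11410 on chromosome 4 differed at 5 positions of a 61-base stretch, C303A, T304A, T309C, A318C and T327C.
mt-Cytb, chrM:14416-14476, plus strand: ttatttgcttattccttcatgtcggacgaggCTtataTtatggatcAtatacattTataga
Gm11410, chr4:80004260-80004320, plus strand: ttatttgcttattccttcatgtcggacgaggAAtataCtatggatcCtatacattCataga

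A search of the annotated nuclear transcripts found 15 copies of mt- genes, and 7 of them lay next to each other on the minus strand of chr1:24611535-24616197 in the same order as in the mitochondrial genome. Their aligned pieces covered 4136 of the 4653 bases of chrM:6390-11042, an interval from inside mt-Co1 to inside mt-Nd4 that is called the run below. The other 517 bases, which include the tRNA genes of the run and all but 43 of the 204 bases of mt-Atp8, lie in none of these copies, and whether chromosome 1 matches them was not examined. The copies without a mismatch over the aligned length were Gm28661 (681 bases of mt-Co2), Gm10925 (678 bases of mt-Atp6), Gm28437 (783 bases of mt-Co3), Gm10222 (294 bases of mt-Nd4l) and Gm28439 (876 bases of mt-Nd4). Gm28438 was identical to mt-Nd3 at 344 of 345 bases and Gm29216 to the 3′ part of mt-Co1 at 482 of 483 bases. Of the 8 copies elsewhere, identity to the mt- gene was between 90.7% and 97.6%. Windows of 150 bases, the length of a sequencing read, were identical to a nuclear transcript in 99.4% of the positions of mt-Co2 and of mt-Atp6, 99.8% of mt-Co3, 98.0% of mt-Nd4l, 96.98% of mt-Nd3, 59.2% of mt-Nd4 and 23.6% of mt-Co1. In mt-Atp8, mt-Nd1, mt-Nd2, mt-Nd5, mt-Nd6, mt-Cytb and both rRNAs no window was.

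The mt- mRNAs that lie whole inside the run had lower levels than the other mt- mRNAs. Levels between genes were compared in counts-per-million (CPM) of the library total, per kilobase of the gene. The 6 mRNAs that lie whole inside the run (mt-Co2, mt-Atp8, mt-Atp6, mt-Co3, mt-Nd3 and mt-Nd4l) had means over the 16 libraries between 0.963 and 12.97 on this scale. The other 7, of which mt-Co1 and mt-Nd4 reach into the run and 5 lie outside it, had means between 660.1 and 3164, and the lowest of them, mt-Nd4, was 50.9 times the highest of the 6, mt-Atp6. The 6 mRNAs made up 26.3% of the mRNA length but 0.167% of the mt- mRNA counts, and no library exceeded 0.432%. They held 8354 counts over all libraries, against 15238 for the 7 copies on chromosome 1. The T3C change in mt-Nd3, the only base that separates the 2 over their aligned length, lies at the start codon, and mt-Nd3 had 9 to 37 counts per library against 112 to 337 for Gm28438. mt-Atp8, which lies inside the run and overlaps mt-Atp6 by 43 bases, was the lowest mRNA, at 0 to 17 counts per library. It has no annotated copy of its own. As only annotated transcripts were searched, its lack of a matching window leaves a match on chromosome 1 unexamined. mt-Nd4, with 59.2% of its windows matched, was at 660.1 per kilobase. The 5 tRNA genes inside the run were at 0 in every library except for 1 count of mt-Ts1, and mt-Tf, which lies outside it, was at 0 as well. A count of 0 allows up to 3 counts, or 0.168 CPM in the smallest library, a limit for counting error only. How reads with several alignments were handled is not given in the sources used here, and its part in these levels was not tested. The 6 mRNAs and their copies are therefore uncertain in every comparison. Medians of mt- mRNAs below are over the other 7, except in the section on processing.

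**Figure D1:**
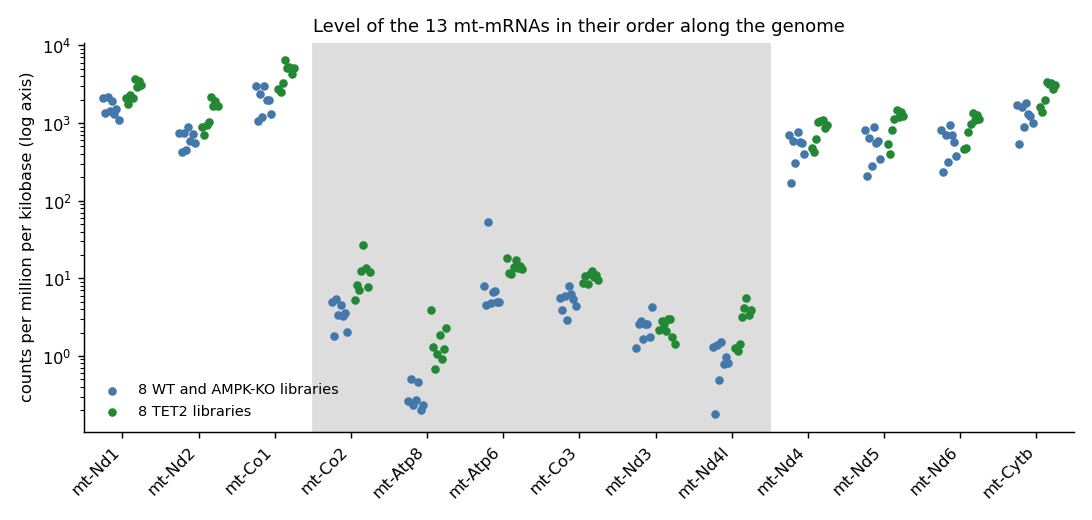
Level of the 13 mt- mRNAs in their order along the mitochondrial genome, in CPM of the library total per kilobase on a log axis; each point is a library (blue, WT and AMPK-KO; green, TET2), a library at 0 is not drawn, and grey marks mRNAs whole inside the chromosome 1 run. The 6 shaded mRNAs have means up to 12.97 and the other 7 means from 660.1.

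Of the 7 mRNAs not whole inside the run, mt-Co1, a catalytic subunit of complex IV, was the most abundant in both experiments, followed by mt-Nd1, mt-Cytb and mt-Nd2, and mt-Nd4 was the lowest per whole length. mt-Nd5 and mt-Nd6 lay in between and changed places between the experiments. The place of mt-Nd4 depended on the length used as divisor. With all its counts divided by its windows without a nuclear match, it had 696.7 over all libraries. This was above mt-Nd2 at 449.7, mt-Nd6 at 404.6 and mt-Nd5 at 323.5. That measure takes matched windows to give no counts, which was not tested, and it raises short genes more than long ones. In the first experiment the mean level of mt-Co1 was 1984 ± 756.8 (SD over the 8 libraries of all 4 groups) and that of mt-Nd1 1605 ± 401.0, so these neighbours in the order overlapped. mt-Cytb followed at 1255 ± 433.3 and mt-Nd2 at 641.4 ± 164.1. The last of the 7 were within each other's spread, with 578.2 ± 249.3 for mt-Nd6, 538.4 ± 243.3 for mt-Nd5 and 504.6 ± 201.6 for mt-Nd4. In the second experiment mt-Co1 had a mean of 4345 ± 1365, mt-Nd1 of 2679 ± 709.3 and mt-Cytb of 2561 ± 779.8 over 8 libraries. Counting only the bases that no other mt- gene covers left all 13 mRNAs at their ranks. In RNA that had been depleted of ribosomal RNA, mt-Rnr2 was at 564.8 ± 172.6 in the first experiment, between mt-Nd6 and mt-Nd5, and at 257.6 ± 56.0 in the second, below mt-Nd4 at 815.7 ± 266.8. mt-Rnr1, at 147.1 ± 61.7 and 187.5 ± 31.1, was below mt-Nd4 in both.

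As a share of all counts, mt- transcripts took between 0.568% and 2.29% of a library. In WT cells they took 1.36% and 0.568% at d0 and 1.43% and 0.970% at d8, where the first value of each pair is replicate 1. In AMPK-KO cells they took 1.16% and 0.666% at d0 and 0.977% and 0.683% at d8. At d0 the means of WT and AMPK-KO were 0.963% and 0.914%, closer than the replicates of either group. At d8 they were 1.20% and 0.830%, with AMPK-KO lower within each replicate number, and the ranges overlapped on both days. Among TET2-WT libraries the share was 1.14% and 1.00% in clone 1 and 1.38% and 2.14% in clone 2. Among TET2-S97E libraries it was 2.29% and 2.12% in clone 1 and 2.03% and 2.09% in clone 2. Replicate 2 of TET2-WT clone 2 lay inside the TET2-S97E range and the other 3 TET2-WT libraries below it. The 95% Wilson interval of every such share was within 0.0064 percentage points of it, for counting error only. As these are bulk samples, fewer cells with a transcript and less of it per cell cannot be told apart.

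**Figure D2:**
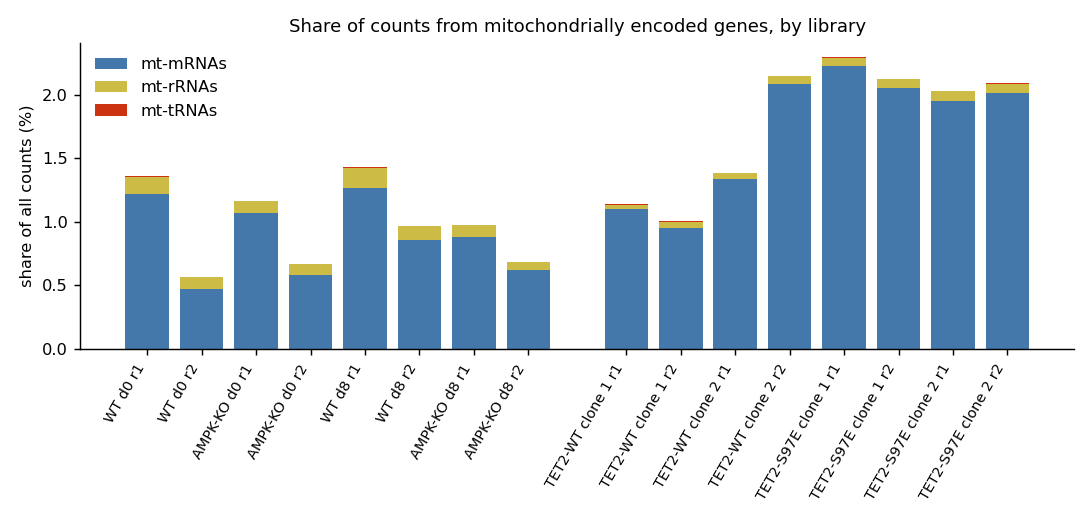
Share of all counts (%, linear axis from 0) taken by mt- mRNAs, rRNAs and tRNAs in each of the 16 libraries, as stacked bars; r1 and r2 are replicates. Replicate 1 is above replicate 2 in the 4 groups of the first experiment, and the 4 TET2-S97E libraries lie between 2.03% and 2.29%.

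Split by class, mRNAs made up 1.36 ± 0.504% of the counts in TET2-WT and 2.06 ± 0.115% in TET2-S97E (SD, n = 4), with overlapping ranges. The rRNAs took 0.0381 to 0.0587% in TET2-WT and 0.0647 to 0.0725% in TET2-S97E, which did not overlap. For tRNAs the ranges were 0.00222 to 0.00301% and 0.00378 to 0.00485%, which did not overlap either. The rRNAs accounted for 7.76 to 16.8% of the mt- counts per library in the first experiment but for 2.74 to 5.20% in the second. mt-Rnr2 had 4.73 to 10.1 times the counts of mt-Rnr1 in the first experiment and 1.88 to 2.70 times in the second. The experiments are separate tables and share no group, so this gap and the experiment cannot be told apart.

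In the first experiment, replicate 1 exceeded replicate 2 for both rRNAs and the 7 mRNAs not whole inside the run, in 36 of 36 pairs of gene and group. In WT at d0 the ratio of the shares was 1.44 for mt-Rnr2, 1.57 for mt-Nd1 and 1.79 for mt-Nd2, but 2.79 for mt-Co1, 3.13 for mt-Cytb, 3.45 for mt-Nd6, 3.91 for mt-Nd5 and 4.11 for mt-Nd4. In AMPK-KO at d0 the ratios ran from 1.02 for mt-Rnr2 to 2.28 for mt-Nd5. At d8 they were closer together, from 1.35 to 1.58 in WT and from 1.26 to 1.76 in AMPK-KO. In the second experiment 19 of 36 such ratios were above 1. Neat1, a nuclear-retained long noncoding RNA, moved with the replicates. CPM here and in all that follows, except per kilobase, are scaled by TMM factors, which correct library totals for composition. Replicates 1 and 2 had 246.8 and 15.1 CPM of Neat1 in WT at d0, 249.4 and 54.5 CPM in AMPK-KO at d0, 260.1 and 132.5 CPM in WT at d8 and 203.3 and 142.9 CPM in AMPK-KO at d8. Malat1, another nuclear-retained RNA, had 307.1 and 110.4 CPM in WT at d0 and 297.7 and 192.4 CPM in AMPK-KO, but 335.6 and 455.1 CPM in AMPK-KO at d8. The part of RNA quality or nuclear RNA content in the mt- levels was not tested.

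**Figure D3:**
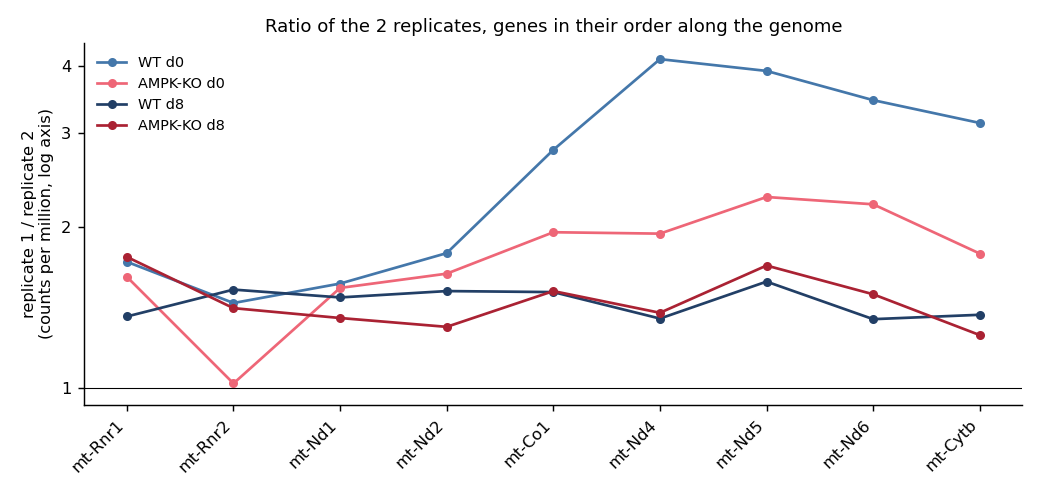
Ratio of replicate 1 to replicate 2 (log axis) of the share of counts for both rRNAs and the 7 mRNAs not whole inside the chromosome 1 run, in genome order; each line is a group of the first experiment. Every ratio is above 1, and in WT at d0 they span 1.44 for mt-Rnr2 to 4.11 for mt-Nd4.

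The first comparison set AMPK-KO cells against WT cells at d0 and at d8. The d0 counts of Prkaa1 were 3287 and 2925 in WT, against 1522 and 1669 in AMPK-KO, and 2290 and 2661 against 2043 and 1698 at d8. Those of Prkaa2 were 35 and 33 against 4 and 9, and 113 and 216 against 31 and 17 at d8. By edgeR, Prkaa1 was called lower at d0 (-1.01, adjusted p = 0.0116) and at d8 (-0.60, adjusted p = 0.0419) and Prkaa2 at d8 (-2.96, adjusted p = 0.0190) but not at d0 (-2.43, adjusted p = 0.0527). Both remained transcribed in the knockouts.

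At d0, none of the 23 mt- genes tested differed between AMPK-KO and WT by edgeR's quasi-likelihood test with Benjamini-Hochberg adjustment over 14329 genes, of which 3.52% were called in either direction. At an unadjusted p under 0.05 there was 1, and DESeq2 also called 0. The median log2 fold change of the 7 mRNAs was 0.01 (range -0.17 to 0.15), next to 0.00 for all genes. This value depended on single libraries. Leaving out 1 library here leaves its group with the other one alone, which is assumed to vary like the other groups. The median was 1.09 without WT replicate 1, -0.62 without WT replicate 2, -0.54 without AMPK-KO replicate 1 and 0.35 without AMPK-KO replicate 2. The 16S rRNA mt-Rnr2 had 1238 and 884.5 CPM in WT and 775.1 and 733.7 CPM in AMPK-KO, a log2 fold change of -0.49 (SE 0.28, adjusted p = 0.384). The libraries of the groups did not overlap for mt-Tc, higher in AMPK-KO, and mt-Rnr2, lower, while 23.7% of all genes were higher and 25.7% lower without overlap. mt-Atp6, one of the uncertain mRNAs, had 702 counts in AMPK-KO replicate 1 and 58 to 111 counts in the other 7 libraries of the experiment. Its log2 fold change was 2.23 (SE 0.93, adjusted p = 0.235), and -0.40 without that library.

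At d8, 0 of 23 mt- genes were called, against 5.35% of all genes, with 1 at an unadjusted p under 0.05 and 0 called by DESeq2. The estimates of all 7 mRNAs were below 0, with a median of -0.48 (range -0.77 to -0.19) where the median of all genes was 0.04. The median was -0.70 without AMPK-KO d8 replicate 1, -0.31 without AMPK-KO d8 replicate 2, -0.22 without WT d8 replicate 1 and -0.65 without WT d8 replicate 2. mt-Rnr1 had 249.5 and 186.7 CPM in WT and 148.4 and 85.3 CPM in AMPK-KO, without overlap. Its log2 fold change of -0.90 (SE 0.39, adjusted p = 0.225) became -0.94 (SE 0.15, adjusted p = 0.0184) in the edgeR fit with the replicate number as a block, which called it lower, as it did 5.69% of all genes. mt-Rnr2 had 1325 and 883.7 CPM in WT and 755.8 and 541.1 CPM in AMPK-KO, with a log2 fold change of -0.77 (SE 0.29, adjusted p = 0.171). In all, 9 of 23 mt- genes were lower in AMPK-KO without overlap and 0 were higher, where 27.9% of all genes were lower and 30% higher. The 9 were both rRNAs, mt-Nd4, mt-Nd6, mt-Cytb, mt-Tl2, mt-Tp and the uncertain mt-Atp6 and mt-Co3.

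The second comparison followed differentiation from d0 to d8. In WT cells 1 of 23 mt- genes was called, the glutamate tRNA mt-Te, which was higher at d8, where 5.78% of all genes were called higher. The gene lies on the minus strand beside mt-Nd6, and its sequence is shown with that of the proline tRNA mt-Tp, the most abundant mt- tRNA, because these had the lowest adjusted p-values of the 23.
mt-Te, chrM:14071-14139, minus strand: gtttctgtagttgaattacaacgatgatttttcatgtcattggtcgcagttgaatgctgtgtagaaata
mt-Tp, chrM:15356-15422, minus strand: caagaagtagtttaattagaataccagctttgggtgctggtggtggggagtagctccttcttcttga
mt-Te had 1.01 and 0.542 CPM in WT at d0 and 4.46 and 2.39 CPM at d8, from 21, 10, 81 and 51 counts. The log2 fold change was 2.12 (SE 0.52, adjusted p = 0.0415), and 2.12 (SE 0.38, adjusted p = 0.0205) with the replicate block. The call by edgeR without the block was kept in 1 of the 8 fits that left out a library each, that without WT d0 replicate 1, with adjusted p from 0.0466 to 0.203 and log2 fold changes from 1.58 to 2.63 over the 8 fits. mt-Tp had 15.4 and 7.75 CPM at d0 and 34.6 and 25.7 CPM at d8. For mt-Tp the log2 fold change was 1.38 (SE 0.46, adjusted p = 0.0948), and with the block it was called, at 1.45 (SE 0.24, adjusted p = 0.0184). mt-Rnr1 had 146.8 and 87.8 CPM at d0 and 249.5 and 186.7 CPM at d8, with a log2 fold change of 0.89 (SE 0.39, adjusted p = 0.168) that was called with the block, at 0.93 (SE 0.15, adjusted p = 0.0165). With the block, 7.92% of all genes were called higher. Levels at d8 lay above d0 without overlap for mt-Rnr1, mt-Tw, mt-Tn, mt-Tc, mt-Te, mt-Tp and the uncertain mt-Co3, and below it for mt-Tl1 and mt-Ts2, against 31.3% and 30.2% of all genes.

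None of the mt- mRNAs was called in WT. The 7 had a median log2 fold change of 0.48 (range -0.09 to 0.65), and all genes a median of 0.01. mt-Nd4 had the widest replicates, with 944.8 and 236.6 CPM at d0 and 1044 and 788.5 CPM at d8, and its log2 fold change was 0.63 (SE 0.62, adjusted p = 0.530). Without WT d0 replicate 1 the median was 1.47 and mt-Nd4 was called, as were 6.46% of all genes in that direction, a call that sets the d8 libraries against replicate 2 alone, with the spread taken from the other groups. Without WT d0 replicate 2 the median was -0.10. mt-Nd1 had 1969 and 1294 CPM at d0 and 1816 and 1252 CPM at d8, a log2 fold change of -0.09 (SE 0.34, adjusted p = 0.890).

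In AMPK-KO cells 0 of 23 mt- genes were called between d8 and d0, against 9.76% of all genes, with 2 at an unadjusted p under 0.05 and 1, the uncertain mt-Atp6, called lower by DESeq2, as were 4.43% of its genes. The DESeq2 estimate for mt-Atp6 was -2.53 (adjusted p = 0.0116), and that of edgeR was -2.54 with all libraries and 0.0708 without AMPK-KO d0 replicate 1, the library with 702 counts. mt-Te again had the lowest adjusted p, with 1.52 and 0.982 CPM at d0 and 3.96 and 3.40 CPM at d8, without overlap. The log2 fold change was 1.56 (SE 0.50, adjusted p = 0.0943), and with the block it was called, at 1.59 (SE 0.36, adjusted p = 0.0409), as were 6.81% of all genes in that direction. mt-Tp had 13.9 and 6.36 CPM at d0 and 20.8 and 15.0 CPM at d8, a log2 fold change of 0.82 (SE 0.46, adjusted p = 0.284). The 7 mRNAs had a median log2 fold change of -0.09 (range -0.45 to 0.13), beside 0.02 for all genes, and it was 0.53 without AMPK-KO d0 replicate 1 and -0.49 without AMPK-KO d0 replicate 2. mt-Te and mt-Tp were higher at d8 without overlap and mt-Tl1 and mt-Ts2 lower, against 30.2% and 28.9% of all genes. The comparisons of this experiment share their libraries in pairs.

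The difference between the changes of the genotypes was tested as an interaction. No mt- gene was called and 0% of the 14329 genes were. At an unadjusted p under 0.05 there were 0 mt- genes and 729 genes in all, and DESeq2 called 0 mt- genes. For mt-Te the difference, AMPK-KO minus WT, was -0.57 (SE 0.70), and for mt-Rnr1 it was -0.79 (SE 0.54), both with an adjusted p of 1.00 by edgeR. With no filter on low counts, edgeR called 1 mt- gene and 1.79% of all genes.

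**Figure D4:**
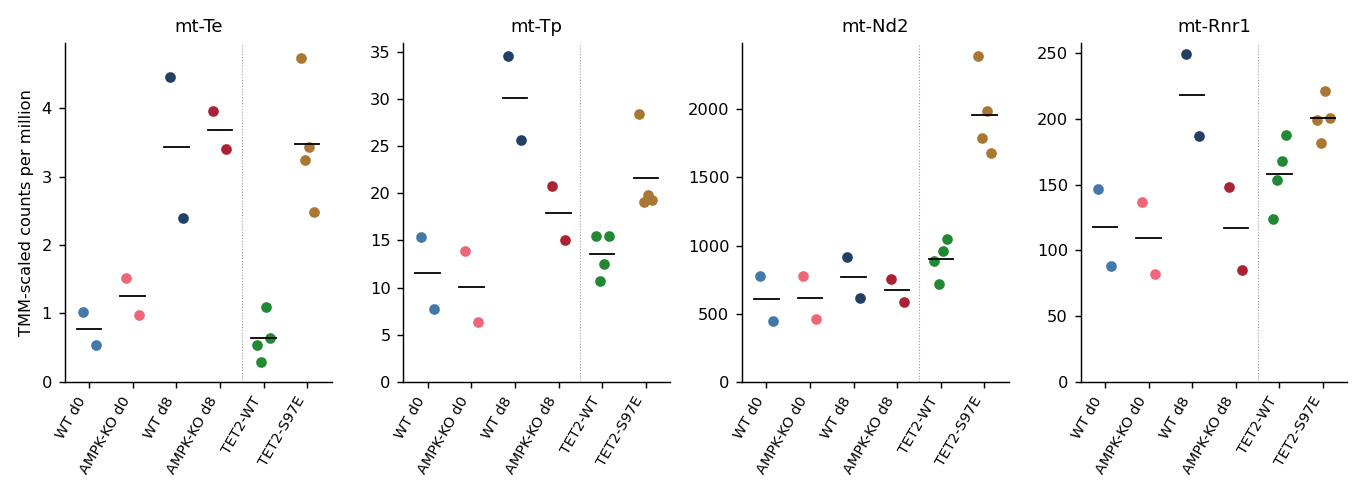
TMM-scaled CPM (linear axes from 0) of mt-Te, mt-Tp, mt-Nd2 and mt-Rnr1; each point is a library, the bar is the group mean, and the dotted line parts the experiments, which were scaled separately. mt-Te is at 2.39 to 4.73 CPM in the d8 and TET2-S97E libraries and at 0.291 to 1.52 CPM in the others.

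The third comparison asked what the TET2-S97E substitution altered in AMPK-null myoblasts. Of the 22 mt- genes tested, 4 were called higher in TET2-S97E than in TET2-WT and 0 lower, while edgeR called 3.71% of the 13433 genes higher and 3.28% lower. DESeq2 called 10 mt- genes higher and 4.08% of its genes. The 4 called by edgeR were the complex I mRNAs mt-Nd1 and mt-Nd2 and the tRNAs mt-Tc (cysteine) and mt-Te (glutamate). mt-Nd2 had 889.6 and 717.7 CPM in TET2-WT clone 1 and 960.9 and 1046 CPM in clone 2, and 2392 and 1790 CPM in TET2-S97E clone 1 and 1986 and 1676 CPM in clone 2. All 4 TET2-S97E libraries were above all 4 TET2-WT libraries, and the log2 fold change was 1.12 (SE 0.17, adjusted p = 0.00871). mt-Te had 0.544, 0.291, 1.10 and 0.639 CPM in TET2-WT and 4.73, 3.24, 3.44 and 2.48 CPM in TET2-S97E, in the same order. These came from 11 to 24 counts per TET2-WT library and 68 to 100 per TET2-S97E library, with a log2 fold change of 2.45 (SE 0.42, adjusted p = 0.0131). As 3 of the 4 TET2-WT libraries reached the cutoff of the filter on low counts, where 4 libraries were needed, it passed through TET2-S97E, and with no filter edgeR called it as well (2.43, adjusted p = 0.00679). mt-Nd1 had 1959, 1682, 2156 and 1970 CPM in TET2-WT and 3757, 2915, 3310 and 2880 CPM in TET2-S97E, a log2 fold change of 0.73 (SE 0.15, adjusted p = 0.0221). mt-Tc had 2.45, 2.33, 2.66 and 2.95 CPM against 5.69, 3.86, 4.50 and 6.32 CPM, a log2 fold change of 0.97 (SE 0.24, adjusted p = 0.0409). In the edgeR fit with the replicate block mt-Tc was not called, at a log2 fold change of 0.975 (SE 0.24, adjusted p = 0.0525). None of these 4 overlapped between genotypes.

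The other mt- mRNAs of the 7 lay in the same direction without a call. The 7 had a median log2 fold change of 0.73 (range 0.46 to 1.12), where all genes had 0.01. mt-Nd6 had 235.8, 248.8, 390.4 and 496.4 CPM in TET2-WT and 738.2, 588.3, 656.2 and 580.2 CPM in TET2-S97E, without overlap, and a log2 fold change of 0.90 (SE 0.24, adjusted p = 0.0558). mt-Nd5 did not overlap either (0.94, SE 0.29, adjusted p = 0.0855). mt-Co1 had 4179, 3890, 5016 and 9631 CPM in TET2-WT and 8415, 8352, 6708 and 7672 CPM in TET2-S97E, so that TET2-WT clone 2 replicate 2 was the highest of the 8. The estimate was 0.46 (SE 0.29, adjusted p = 0.378). The log2 fold change of mt-Cytb was 0.61 (SE 0.26, adjusted p = 0.188) and that of mt-Nd4 0.69 (SE 0.26, adjusted p = 0.152). Of the rRNAs, mt-Rnr2 had 247.5, 368.4, 314.9 and 382.9 CPM against 504.2, 490.9, 505.2 and 461.3 CPM, without overlap (0.58, SE 0.15, adjusted p = 0.0530). mt-Rnr1 was at 0.35 (SE 0.15, adjusted p = 0.192). Altogether 10 of the 22 were higher in TET2-S97E without overlap and 0 lower, against 7.3% and 7.99% of all genes. The 10 include the uncertain mt-Nd4l, of which 2 of 4 TET2-WT libraries reached the cutoff of the filter, so that it, like mt-Te, passed through TET2-S97E. The members are cut from shared precursors and were read from the same libraries, so they are not independent of each other.

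These calls depended on the clones. The 4 libraries of a genotype came from 2 clones, and with counts summed per clone edgeR called 0 of the mt- genes and 0 genes in all, with adjusted p from 0.307 to 0.468 for the 4. limma-voom with a random effect per clone called mt-Nd2 and mt-Te higher, and 0.677% of all genes. Without TET2-WT clone 1, 0 mt- genes and 0.703% of all genes were called higher, and the median of the 7 mRNAs was 0.51. Without TET2-WT clone 2, 8 mt- genes and 2.24% of all genes were called higher, and the median was 1.18. Without TET2-S97E clone 1, mt-Nd2 alone of the mt- genes was called, with 3.41% of all genes, and without TET2-S97E clone 2 mt-Nd1, mt-Nd2 and mt-Te were, with 4.88%. When single libraries were left out, mt-Nd2 kept its call in 8 of 8 fits and mt-Te in 7, all but that without TET2-WT clone 1 replicate 1. mt-Nd1 kept it in 3 fits, those without TET2-WT clone 2 replicate 2 or a replicate 2 of either TET2-S97E clone, and mt-Tc in 2, with adjusted p from 0.0429 to 0.1145. Without TET2-WT clone 2 replicate 2, the library high in mt-Co1, 11 mt- genes and 4.47% of all genes were called higher.

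**Figure D5:**
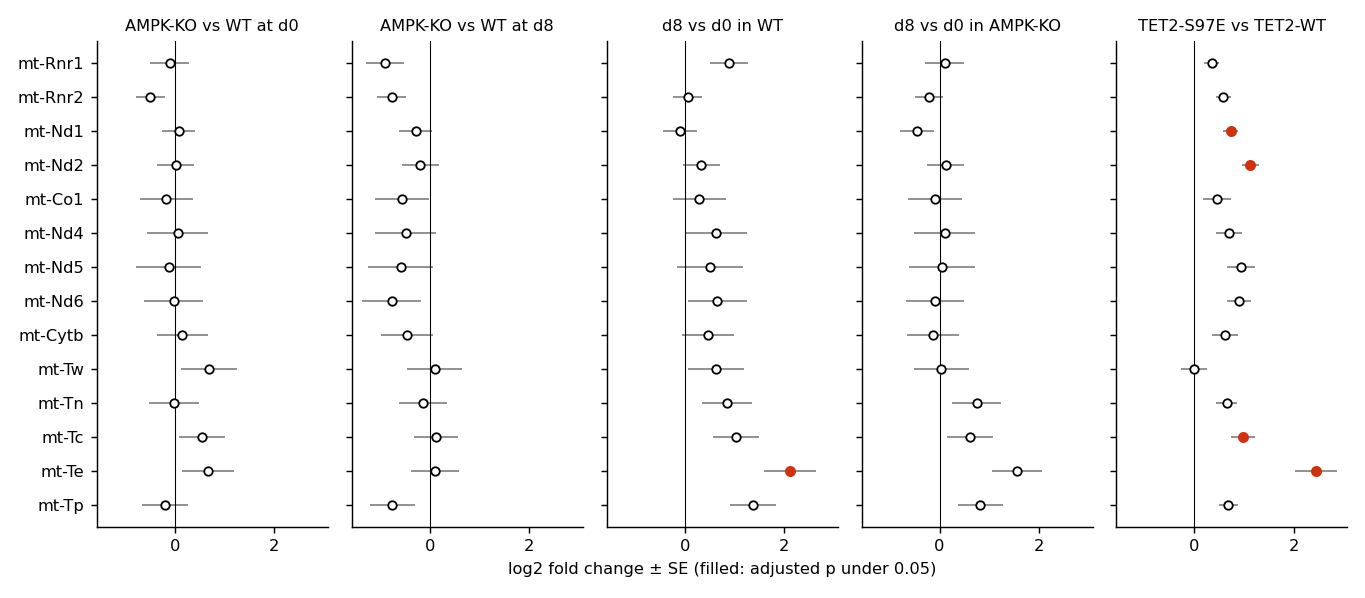
Log2 fold change ± SE from edgeR for both rRNAs, the 7 mRNAs not whole inside the run and the 5 most abundant tRNAs, in 5 comparisons. Filled points have an adjusted p under 0.05; they are mt-Te in d8 against d0 of WT, and mt-Nd1, mt-Nd2, mt-Tc and mt-Te in TET2-S97E against TET2-WT.

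The clones of each genotype were also compared with each other. Between clones of TET2-S97E 0 of 23 mt- genes were called, against 6.17% of all genes, and the 7 mRNAs had a median log2 fold change, clone 2 against clone 1, of -0.19 (range -0.31 to -0.10). There was 1 mt- gene at an unadjusted p under 0.05, and DESeq2 called 0. In TET2-S97E clone 2, mt-Rnr1 and mt-Tn were higher than in clone 1 without overlap and 7 mt- genes were lower, among them mt-Co1, mt-Nd4 and mt-Cytb, against 26.3% and 21.3% of all genes. Between clones of TET2-WT 0 of 23 were called as well, against 0.858% of all genes, with 5 at an unadjusted p under 0.05. DESeq2 called 5 higher in clone 2, where it called 2.01% of its genes, namely mt-Co1, mt-Nd4, mt-Nd5, mt-Nd6 and mt-Cytb. The 7 mRNAs had a median of 0.85 (range 0.18 to 1.05), which was 0.39 without TET2-WT clone 2 replicate 2 and 1.12 without TET2-WT clone 2 replicate 1, when mt-Co1, mt-Cytb, mt-Nd4 and mt-Nd5 were called higher, with 0.727% of all genes. Those calls rest on replicate 2 as the lone library of clone 2, with the spread taken from the other groups. Without replicate 1 or replicate 2 of TET2-S97E clone 2, mt-Nd5 was called, with 1.15% and 1.07% of all genes. mt-Nd5 had 949.1 and 726.7 CPM in clone 1 and 1473 and 1991 CPM in clone 2, a log2 fold change of 1.05 (SE 0.22, adjusted p = 0.0667). In TET2-WT clone 2, 13 of 23 mt- genes were higher than in clone 1 without overlap and mt-Atp8 was lower, against 26% and 27.8% of all genes. Of the 10 muscle identity genes described below, 9 had higher estimates in that clone, with a median log2 fold change of 2.59 and 1 call. In TET2-S97E 9 of the 10 had lower estimates in clone 2, with a median of -1.64 and 3 calls. Neat1 was highest in the library that was high in mt-Co1. It had 368.6 and 359.0 CPM in TET2-WT clone 1, 513.7 and 2510 CPM in clone 2, 418.8 and 1173 CPM in TET2-S97E clone 1 and 245.1 and 1602 CPM in clone 2, and its part in the mt- levels was not tested.

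Among the 22 tRNAs, mt-Tp had the highest level per length, with a mean over the 16 libraries of 260.6 CPM of the library total per kilobase, followed by mt-Tc at 56.2 and mt-Tn (asparagine) at 48.3. Next were mt-Te, at 33.1 in the first experiment and 29.3 in the second, and mt-Tw (tryptophan), at 27.1 and 34.8, so that their order differed between the experiments. All of these 5 but mt-Tw are read from the minus strand, which carries 8 of the 22 tRNA genes. tRNAs are shorter than a read, so the counts may come from precursors, which was not tested. Of 10 tRNAs tested in the first experiment, the 5 on the minus strand (mt-Tn, mt-Tc, mt-Ty, mt-Te and mt-Tp) all had estimates above 0 at d8 in WT, from 0.30 to 2.12, and in AMPK-KO, from 0.36 to 1.56. The 5 on the plus strand were mixed, with 3 above 0 in WT and 1 in AMPK-KO. In TET2-S97E the same 5 minus-strand tRNAs were at 0.65 to 2.45 and the 3 tested plus-strand tRNAs at -0.01 to 1.06. Of these estimates, mt-Te in WT and mt-Te and mt-Tc in TET2-S97E passed the test. Whether the counting used strand is not given in the sources used here. mt-Te and mt-Nd6 lie side by side on the minus strand, and mt-Te had 2.46 to 6.11 counts per 1000 counts of mt-Nd6 at d0 and 6.60 to 17.1 at d8 over both genotypes. In TET2-WT it had 1.17 to 2.82 and in TET2-S97E 4.27 to 6.41 per 1000, so it did not keep a fixed ratio to its neighbour.

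mt-Nd1 and mt-Nd2 lie on the plus strand with only tRNA genes between them. Per kilobase, mt-Nd2 was at 0.318 to 0.362 of mt-Nd1 in the 4 d0 libraries of the first experiment and at 0.453 to 0.502 in the 4 d8 libraries. In TET2-WT this ratio was 0.393 to 0.489 and in TET2-S97E 0.537 to 0.587. Neither pair of ranges overlapped. These ratios were picked after the values had been seen and are given without a test.

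Nuclear genes that serve the mitochondrial genome were counted against all genes, of which edgeR called, in either direction, 3.52% in AMPK-KO against WT at d0, 5.35% at d8, 12.4% from d0 to d8 in WT, 9.76% in AMPK-KO and 6.98% in TET2-S97E against TET2-WT. In lists of this size such shares are a few genes or none, so the counts below describe the lists and set none of them apart. Of 9 genes for mitochondrial transcription, such as the polymerase Polrmt and the factor Tfam, 0 were called in AMPK-KO against WT on either day, from d0 to d8 in either genotype, or in TET2-S97E against TET2-WT. The medians lay between -0.16 and 0.41. Of the 9 genes for mt-mRNA stability and decay and the 18 for modification of mt- rRNAs and tRNAs, 0 were called in those 5 comparisons. Of 12 genes for transcript processing and polyadenylation, Tbrg4, which encodes an RNA-binding protein of mitochondria, fell from d0 to d8 by 1.08 on the log2 scale in WT (SE 0.20, edgeR adjusted p = 0.0201) and by 0.93 in AMPK-KO (SE 0.20, adjusted p = 0.0344). Rrm2b, a ribonucleotide reductase subunit that supplies mtDNA synthesis in resting cells, rose at d8 in WT by 0.81 (SE 0.18, edgeR adjusted p = 0.0340), as 1 of 13 genes of mtDNA replication and nucleotide supply. Mss51, a muscle gene whose yeast relative activates translation of the Co1 mRNA, rose in WT by 3.82 (SE 0.64, edgeR adjusted p = 0.0165), from 32 and 19 to 325 and 400 counts, and in AMPK-KO by 5.12 (SE 0.68, adjusted p = 0.0209), as 1 of 14 mitochondrial translation factors. Of the same list, Mtrf1, which encodes a mitochondrial release factor, had 0 and 0 counts in AMPK-KO and 12 and 32 in WT at d8, and only the WT d8 libraries reached the cutoff of the filter on low counts, so no test is given.

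Of the nuclear partners of the mt- mRNAs, 0 of 36 genes for complex I subunits were called in those 5 comparisons, with a median in TET2-S97E against TET2-WT of 0.10 next to 0.73 for the 7 mt- mRNAs. In complex IV, with 14 genes tested, Cox6a2, the muscle form of its subunit, was called higher in TET2-S97E (3.17, SE 0.60, edgeR adjusted p = 0.0186) and at d8 in WT (5.56, SE 1.32, edgeR adjusted p = 0.0386). Cox8b, another muscle form, was also called in both and at d8 in AMPK-KO, but it passed the filter on low counts through the groups where it was high and its calls are given no weight. It had 6 and 0 counts in WT at d0, 2 and 0 in AMPK-KO at d0, 32 and 107 in WT at d8 and 206 and 380 in AMPK-KO at d8. Of 10 regulators of mitochondrial biogenesis tested at d0, Esrra, a nuclear receptor, was lower in AMPK-KO than in WT, with a log2 fold change of -1.20 (SE 0.22, edgeR adjusted p = 0.0331), and was the 1 gene of the list called. Of 9 tested in the second experiment Ppargc1a, a coactivator of mitochondrial gene expression, had 17 to 184 counts per library in TET2-S97E and 3 to 10 in TET2-WT, where no library reached the cutoff of the filter, so no test is given.

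Markers of muscle moved with some of these comparisons. Summed over 10 muscle identity genes, CPM was 896.3, 1159, 943.9 and 1356 in TET2-WT and 8259, 3796, 2803 and 1078 in TET2-S97E, with Des or Acta1 the most abundant gene, and 7 of the 10 were called higher in TET2-S97E, against 3.71% of all genes, with a median log2 fold change of 4.30. Of the 7, Myh1 reached the cutoff of the filter in TET2-S97E alone. Its call is given no weight, although the count and the median include it. From d0 to d8, 7 were called higher in WT and 8 in AMPK-KO, where 12.4% and 9.76% of all genes were called in either direction. In AMPK-KO at d0 Ckm had 4 and 0 counts, Myh1 4 and 2 and Myh3 4 and 3, so their estimates start near the floor. At d0, 3 (Myog, Myod1 and Mymk) were called lower in AMPK-KO than in WT, where 3.52% of all genes were called in either direction. At d0 the WT libraries summed to 1455 and 2048 CPM, against 986.3 and 1217 CPM in AMPK-KO, and at d8 to 8421 and 11830 CPM, against 3018 and 13024 CPM. TET2-S97E clone 2 replicate 2 had a sum inside the TET2-WT range, in which Des led. Its Myog (42.0 CPM), Acta1 (180.8 CPM) and Ckm (19.7 CPM) were above the highest TET2-WT values of 13.8, 110.9 and 13.4 CPM. Other genes of the list went the other way. Tnnt3 had 1203 counts there and Des 21207, against 1815 and 30665 in TET2-WT clone 2 replicate 2, a library with a lower total. Myf5 was also below its highest TET2-WT level. Of 12 markers of other cell types the sums stayed between 29.6 and 246.4 CPM, led by Tubb3 or Pdgfra, with Sox10 at 0 in 14 of 16 libraries and Ptprc in 13. Of these 12, 4 were tested in the first experiment. Tubb3, a neuronal tubulin gene, was called lower in AMPK-KO than in WT at d0 and at d8 and lower at d8 than at d0 in AMPK-KO. Dpt, a fibroblast marker, had 9 and 5 counts at d0 and 145 and 105 at d8 in WT, and 2 and 5 against 437 and 76 in AMPK-KO, and it reached the cutoff of the filter at d8 alone, so no test is given. The part of the degree of differentiation in the mt- levels was not tested.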

How the data were processed

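RNA-seq of 16 libraries was analysed from the deposited counts. Per the study's methods, the authors trimmed the reads with Trim Galore 0.4.5 and aligned them to GRCm38 (mm10) with STAR 2.5.3a. They counted them per gene with featureCounts 1.5.3 on GENCODE M12. The reads were converted with bcl2fastq 2.17, a step not given in those methods. The strand setting and the handling of reads with several alignments are not given in the sources used here. The deposited values are whole-number counts without normalization, in 1 table per experiment of 49585 genes, of which 49326 were named through GENCODE M21. No row held reads without a gene.

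Nuclear copies were found by searching the mt- transcripts against the annotated transcripts of GRCm38 (identity of at least 90% over at least 80% of the copy). A genome sequence and protein sequences were not used here.

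Counts were tested in R 4.3.3 with edgeR 4.0.16 (TMM, filterByExpr, glmQLFit, glmQLFTest), with Benjamini-Hochberg adjustment over all tested genes. Calls have an adjusted p under 0.05. The 4 groups of the first table entered 1 fit with 4 residual degrees of freedom, genotypes of the second a fit with 6 and its clones a fit with 4. Of the 37 members, 23, 22 and 23 passed the filter, which asks for a CPM worth 10 counts in the median library, in 2 libraries of the first table and 4 (genotypes) or 2 (clones) of the second. A member that passes only through the group where it is high has to differ, so counts over the tested members are descriptions. The script was tested on simulated data with less spread between libraries than here and no effect of clone or replicate. That test does not show how often calls in these data are wrong. DESeq2 1.42.0 and limma 3.58.1 served as alternatives. Intervals of shares are 95% Wilson intervals.

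Members, gene lists and tests were chosen with earlier results of these data known. Named are all mt- mRNAs and rRNAs, the 5 tRNAs with the highest mean CPM and any tRNA called, nuclear copies with at least 10 counts in a library, Prkaa1, Prkaa2, Tet2, Malat1, Neat1, and of each list at most 3 genes with the lowest adjusted p. Gm11410, mt-Tl1, mt-Tl2, mt-Ts1, mt-Ts2, mt-Tf, mt-Ty, Acta1, Des, Sox10 and Ptprc were named after their values were seen. To check whether replicate numbers pair the libraries, each library's deviation from its group mean was correlated with that of the library of the same number in another group. The correlation was 0.119 to 0.324 over the 6 pairs of groups in the first experiment, which was therefore also fitted with a replicate block, and -0.0214 to 0.506 in the second. The labels do not say that a number marks a shared day or batch. Counts of no 2 replicates agreed within sampling noise.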

Additional observations from a re-analysis of the deposited data

Results flagged for a closer look

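Of 48 values tested in the TET2 genotypes (4 libraries each), 2 had a library far from the other 3, where chance gives about 1 in 20. mt-Nd4l had 0.923 CPM in TET2-WT clone 2 replicate 2 and 0.344 to 0.412 CPM in the other TET2-WT libraries. mt-Nd4l is 1 of the mRNAs that a nuclear copy matches without a mismatch, and the same library was highest in mt-Co1 and Neat1. mt-Tp had 28.4 CPM in TET2-S97E clone 1 replicate 1 and 19.1 to 19.8 CPM in the other TET2-S97E libraries. The causes were not tested.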

How the results depend on the processing

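Apart from fits that left out a library, 157 counts of calls and medians were recomputed. Of these, 139 kept their value within the limits used and 18 moved. Medians here are over all tested mt- mRNAs, the uncertain ones included. A count was kept if it stayed equal or, with neither value at 0, within a set factor. A median was kept if it moved by less than the SD between replicates, 0.82 in the first experiment and 0.24 in the second. No median was among the 18. As 0.82 exceeds the medians of the first experiment, they could lose their sign and still be kept. For d8 against d0 in AMPK-KO the alternatives ran from -0.106 to 0.0099. For AMPK-KO against WT the count of mt- genes called, 0 on each day, was 1 at d0 (mt-Atp6) and 3 at d8 with no filter on low counts. From d0 to d8 in WT, 1 became 2 with DESeq2, 4 with no filter and 0 with only the 4 libraries of these groups. In AMPK-KO, 0 became 1 with DESeq2 and 2 with no filter. The interaction and the TET2-S97E clones each had 1 call with no filter in place of 0. TET2-S97E against TET2-WT had 4 calls, 10 with DESeq2, 0 with counts summed per clone and 2 with limma-voom. The TET2-WT clones had 0, and 5 with DESeq2 and with no filter. With the replicate block, paired calls numbered 1 at d8 for AMPK-KO against WT, 3 for d8 against d0 in WT, 1 in AMPK-KO and 2 for the TET2-WT clones, whose replicates share only a number; in the other comparisons the block moved no count past the limit, though mt-Tc lost its call in TET2-S97E. Over the 8 comparisons DESeq2 called 0.215% to 10.4% of all genes in either direction, edgeR with no filter 1.79% to 13.1% and with the block 0% to 16.5%. Of single genes, 270 of 309 values kept their side of the threshold, 29 gained and 10 lost it. The causes were not tested.

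With libraries or clones left out 1 at a time, where a lone library is assumed to vary like the other groups, calls ranged from 0 to 2 for d8 against d0 in WT, 0 to 11 for TET2-S97E against TET2-WT and 0 to 4 for the TET2-WT clones, and were 0 in the other 5 comparisons. Medians over the tested mt- mRNAs ranged from -0.42 to 1.09 (AMPK-KO against WT, d0), -0.65 to -0.22 (d8), -0.10 to 1.07 (d8 against d0, WT), -0.49 to 0.53 (AMPK-KO), -1.59 to 0.0253 (interaction), 0.41 to 1.07 (TET2-S97E against TET2-WT), -0.30 to -0.08 (TET2-S97E clones) and 0.24 to 0.87 (TET2-WT clones). The log2 fold change of mt-Atp6 ranged from -0.40, without AMPK-KO d0 replicate 1, to 3.08 in the comparison of genotypes at d0, and from -3.40 to 0.0708, without that library, for d8 against d0 in AMPK-KO. mt-Te rested on 10 to 100 counts per library, which limits its precision.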

Other observations

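The copies on chromosome 1 had libraries that stood apart. Gm28437, identical to mt-Co3 over 783 bases, had 897 counts in WT d0 replicate 2 and 446 in AMPK-KO d8 replicate 1, against a median of 150 over the 16 libraries. mt-Atp6 had 702 counts in AMPK-KO d0 replicate 1 while its copy Gm10925 had a median of 153.5 and at most 534 counts, in TET2-WT clone 1 replicate 2. These high values lay in different libraries.

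Tet2 itself had 758, 854, 1275 and 1584 counts in the TET2-WT libraries and 256, 675, 156 and 677 in the TET2-S97E libraries, in the order clone 1, clone 2. Its log2 fold change was -1.40 (SE 0.39, edgeR adjusted p = 0.0621).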
